A study of Mus musculus with 12 samples.

Results

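Protocadherin genes were taken as the rows of the count table whose gene name is Pcdh followed by a digit or by a, b or g, which gave 70 of 55492 rows. Of these, 12 were non-clustered genes and 58 belonged to the clustered genes, with 14 rows in the alpha, 22 in the beta and 22 in the gamma cluster. Pcdha11 was listed under 2 gene identifiers, so the 70 rows carried 69 symbols. A level of 10 or more counts in at least 3 libraries was reached by 31 rows, of which 6 were non-clustered, 10 were beta and 15 were gamma genes, and no alpha gene reached it. Enough counts for the statistical test were present for 29 rows, namely 5 non-clustered, 10 beta and 14 gamma genes. No count in any library was recorded for 12 rows, which were Pcdh8, Pcdhb1 and 10 of the alpha rows.

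RNA-seq libraries of CCN6KOT, primary mouse cells of a breast tumour with spindle-shaped, metaplastic growth, numbered 12, with 3 in each of 4 groups. DNTCF4_EZH2 cells carried a dominant negative TCF4 construct and a construct labelled EZH2. DNTCF4_SET cells carried the dominant negative TCF4 construct and a construct labelled SET. The labels neither expand that name nor tie it to the gene Set. DNTCF4 cells carried the dominant negative TCF4 construct, with the word Vector in their titles, and Vector cells carried a control lentivirus, with the term PPGS, not expanded, in their titles. The constructs were delivered by lentivirus, and puromycin selection is given for every group. TCF4, encoded by Tcf7l2, carries the Wnt signal to its target genes together with beta-catenin, and EZH2 is the enzyme of the Polycomb complex that methylates histone H3. The labels give neither the promoters of the constructs nor a clone, strain or age. Whether replicates were grown separately is also not stated, and p-values therefore cover the spread between these libraries alone, which may be technical.

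Libraries held 23597545 to 33999982 counts, and 15052 genes had enough for the test. Counts on Ezh2 were 449.6 ± 20.4 CPM in DNTCF4_EZH2, 545.4 ± 33.1 in DNTCF4_SET, 65.4 ± 3.10 in DNTCF4 and 57.8 ± 1.54 in Vector cells (SD, n = 3 each), where CPM is a count scaled to the size of its library. Counts on Tcf7l2 were 45.4 ± 1.77, 35.2 ± 2.68, 39.8 ± 2.41 and 11 ± 2.47 CPM in DNTCF4_EZH2, DNTCF4_SET, DNTCF4 and Vector cells, and reads of a construct cannot be told apart from those of the cell's own gene. Of 8 markers of spindle and mesenchymal cells, 7 were above 1 CPM and Twist1 had no count. Their summed level ran from 6840 to 6980 CPM in DNTCF4_EZH2, from 6270 to 6740 in DNTCF4_SET, from 5270 to 5850 in DNTCF4 and from 12000 to 13100 in Vector libraries. Replicate 1 of DNTCF4 was set apart, since its counts gave 19.8 and 12.5 for chi-square per degree of freedom against replicates 2 and 3, and those 2 gave 3.26 against each other. DNTCF4_EZH2 replicates 1 and 2 gave 15.8, and the remaining pairs within groups gave 2.43 to 6.19.

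Protocadherins are transmembrane proteins of the cadherin superfamily that bind like molecules on a neighbouring cell and are best known from neurons. Each clustered gene starts from its own promoter and its own large exon. In the alpha and gamma clusters that exon is spliced to constant exons shared by the whole cluster, whereas a beta gene is a single exon. In neurons CTCF and cohesin help to choose which promoters are used, and the resulting set of isoforms lets a cell tell itself from its neighbours. Non-clustered protocadherins stand alone in the genome and have cytoplasmic tails of their own, which bind such partners as the WAVE actin complex.

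Pcdh7 and Pcdh18 were the non-clustered genes other than Pcdh1 with a mean above 1 CPM over the 12 libraries, and their upstream sequences are shown because they moved in opposite directions with the dominant negative TCF4 construct. RefSeq windows of 250 bases before to 50 after a start (GRCm38.p6) were matched for 9 members, with 10 windows. The stretches below are the parts of those windows that lie ahead of the first transcript start in GENCODE, 136 bases on the plus strand at chr5:57717831-57717966 for Pcdh7 and 241 bases on the minus strand at chr3:49757326-49757566 for Pcdh18, written 5′ to 3′. Capitals mark CTTTGA, a form of the core of the TCF/LEF motif, in Pcdh7, and ATTGG, the reverse complement of the CCAAT box, in Pcdh18. The Pcdh18 stretch also holds ctttgt, which differs from CTTTGA in its last base. It is left in small letters and was not counted over the windows.
Pcdh7: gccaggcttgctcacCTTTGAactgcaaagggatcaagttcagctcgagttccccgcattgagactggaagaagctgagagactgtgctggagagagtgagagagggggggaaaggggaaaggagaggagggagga
Pcdh18: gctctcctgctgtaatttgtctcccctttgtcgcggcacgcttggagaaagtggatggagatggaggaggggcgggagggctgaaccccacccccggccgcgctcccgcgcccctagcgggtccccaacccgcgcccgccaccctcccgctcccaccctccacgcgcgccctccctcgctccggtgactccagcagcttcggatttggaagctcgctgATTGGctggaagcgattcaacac
On either strand, CTTTGA was found in 1 of the 10 member windows, that of Pcdh7, and in 16.0% of all 32851 windows. The longer CTTTGAT, which contains CTTTGA, was in none of the member windows and in 3.73% of all. CCAAT was in 9 of the 10 member windows, all but that of Pcdh7, and in 37.4% of all. Such matches describe the letters and are not binding sites. Within the 300 bases, Pcdh7 had 11 CpG pairs and Pcdh18 had 23, beside a median of 7 over all windows.

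Per length, Pcdhgc3 was the highest of all members. Its mean over the 12 libraries was 47.0 CPM per kb of its longest transcript, ahead of Pcdh1 at 7.74, Pcdhb17 at 5.96, Pcdhgb5 at 4.11, Pcdhb16 at 2.93 and Pcdh18 at 2.25 CPM per kb. Pcdhgc5 at 1.56, Pcdh7 at 1.45, Pcdhgb7 at 1.34, Pcdhb18 at 1.31 and Pcdhga5 at 1.27 CPM per kb followed. The level of Pcdh7 depended on the group, with 1.78, 2.04 and 1.88 CPM per kb in DNTCF4_EZH2, DNTCF4_SET and DNTCF4 cells and 0.0952 CPM per kb in Vector cells. Protocadherin counts together made up from 0.0345% to 0.0448% of a library.

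In DNTCF4 cells 16 of the 29 tested protocadherin genes differed from Vector cells at an adjusted p below 0.05 (edgeR's quasi-likelihood test), 7 of them higher and 9 lower, and such genes are referred to as called. That share, 55.2%, is close to the 57.5% of all 15052 tested genes that passed in this comparison, where 29.5% were higher and 28% lower. The median log2 change of the 29 genes was -0.01, beside 0.01 for all tested genes. By family, 1 non-clustered gene was higher and 3 were lower, 5 beta genes were higher and 1 was lower, and 1 gamma gene was higher and 5 were lower. Without Vector replicate 2 and DNTCF4_SET replicate 2, the libraries of their groups with the most reads on olfactory and vomeronasal receptor genes and called receptor-rich here, 11 members passed, 7 higher and 4 lower, and without Vector replicate 2 alone 12 passed, 8 higher and 4 lower. The share of all tested genes called in those fits, which hold fewer libraries, is not given here. The smaller counts are therefore not read as a result about the members.

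Pcdh7, whose protein binds protein phosphatase 1 alpha and, in human lung cancer cells, the SET protein, had the largest change of the tested members with counts in every group. Its level was 15.5, 15.9 and 15.5 CPM in DNTCF4_EZH2, 17.5, 17.6 and 18.6 CPM in DNTCF4_SET, 17.8, 15.2 and 16.6 CPM in DNTCF4, and 0.791, 0.923 and 0.796 CPM in Vector libraries. All 9 libraries with the dominant negative TCF4 construct were high and the 3 Vector libraries were low, at 21, 25 and 19 counts. The fitted log2 change was 4.29 ± 0.11 (SE) in DNTCF4 against Vector (adjusted p 3.91e-14), a 19.6-fold rise, and it lay between 4.23 and 4.38 with any single library left out. Neither second construct moved it past the threshold, with log2 changes of -0.08 ± 0.07 in DNTCF4_EZH2 (adjusted p 0.430) and 0.12 ± 0.06 in DNTCF4_SET (adjusted p 0.200), each against DNTCF4. Pcdh7 made up 24.9% of all non-clustered protocadherin counts in DNTCF4 and 1.32% in Vector cells, as means of 3 libraries. Its exons overlap those of 4932441J04Rik on the opposite strand, which was also higher in DNTCF4 against Vector (log2 change 3.47, adjusted p 0.00333). The use of strand in the counting is not stated, so reads of this pair cannot be told apart. In bulk RNA, fewer cells that express a gene and less RNA per cell cannot be told apart.

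Pcdh18, whose mouse protein binds the adaptor Dab1, fell with the dominant negative TCF4 construct. It stood at 9.82, 9.40 and 9.53 CPM in DNTCF4_EZH2, 11.4, 10.2 and 10.3 CPM in DNTCF4_SET, 8.54, 8.50 and 8.72 CPM in DNTCF4, and 17.9, 17.9 and 17.6 CPM in Vector libraries. Each Vector library was above each of the other 9, and each DNTCF4_SET library was above each DNTCF4 library. The log2 change was -1.05 ± 0.06 in DNTCF4 against Vector (adjusted p 1.18e-09), and in DNTCF4_SET against DNTCF4 it was 0.31 ± 0.06 (adjusted p 0.00248). The DNTCF4_EZH2 libraries also lay above the DNTCF4 libraries, without passing the test (log2 change 0.16 ± 0.06, adjusted p 0.0837). The DNTCF4_SET mean of 10.6 CPM remained below the Vector mean of 17.8 CPM. The summed spindle and mesenchymal markers, given above, were likewise lower in the 9 libraries with the construct, and their part in these values was not tested.

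Pcdh1, a protocadherin of airway epithelium and other epithelia, was the most abundant non-clustered gene and passed the test in none of the 4 comparisons. Its level was 42.5, 42.5 and 46.0 CPM in DNTCF4_EZH2, 43.2, 41.9 and 40.5 CPM in DNTCF4_SET, 36.9, 43.4 and 42.5 CPM in DNTCF4, and 39.6, 43.5 and 40.6 CPM in Vector libraries. All groups overlapped, and the largest log2 change was 0.09 ± 0.06, in DNTCF4_EZH2 against DNTCF4 (adjusted p 0.297). Of the 8 epithelial markers, Krt8, Krt18 and Krt19 were above 1 CPM, and the summed level of the 8 ran from 326 to 369 CPM over the 12 libraries.

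**Figure D1:**
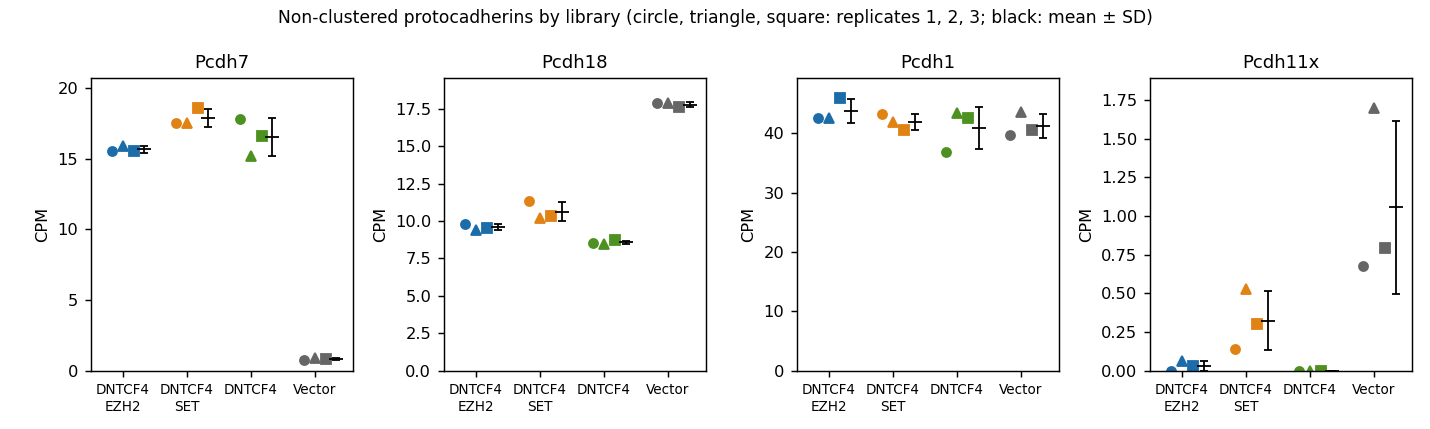
Level in CPM (linear axis from 0) of Pcdh7, Pcdh18, Pcdh1 and Pcdh11x in each of the 12 libraries, with the groups along the horizontal axis, symbols for replicates 1 to 3 and the mean ± SD of each group in black. Pcdh7 is near 0.8 CPM only in Vector libraries, Pcdh18 is highest there, Pcdh1 overlaps between all groups, and Pcdh11x is at 0 in the 3 DNTCF4 libraries.

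Pcdh11x, an X-linked gene of the same delta-1 group as Pcdh1 and Pcdh7, was counted at low levels. It had 0, 2 and 1 counts in DNTCF4_EZH2, 4, 14 and 10 counts in DNTCF4_SET, 0, 0 and 0 counts in DNTCF4, and 18, 46 and 19 counts in Vector libraries. Vector replicate 2 was the highest, and the DNTCF4 libraries were at 0, where a floor of 3 counts per library allows 0.0949 to 0.113 CPM. Pcdh11x had enough counts for the test only through the Vector libraries, where it was highest. Its p against Vector therefore adds no support beyond the counts. With a floor of 3 counts over the group, Pcdh11x was at least 30.3-fold lower in DNTCF4 than in Vector (adjusted p 3.32e-05) and at least 9.06-fold higher in DNTCF4_SET than in DNTCF4 (adjusted p 0.00497). The first bound was 20.8-fold without Vector replicate 2. With limma on the deposited rlog values Pcdh11x did not pass in DNTCF4_SET against DNTCF4 (adjusted p 0.21). The DNTCF4_EZH2 libraries held 3 counts in all, so no fold against DNTCF4 is given.

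Pcdh17, Pcdh19 and Pcdh10 had their summed counts in the same order of groups, although they fell below the filter of the test reported here. Pcdh12 and Pcdh9, also below that filter, did not have this order. Pcdh17, Pcdh19 and Pcdh10 were chosen after their values were seen. Pcdh17, which binds the WAVE complex, had 0, 2 and 0 counts in DNTCF4_EZH2, 4, 3 and 1 in DNTCF4_SET, 0, 0 and 0 in DNTCF4 and 4, 24 and 8 in Vector libraries. Pcdh19, a brain protocadherin that also binds the WAVE complex, had 3, 1 and 0 counts in DNTCF4_EZH2, 1, 7 and 2 in DNTCF4_SET, 1, 0 and 0 in DNTCF4 and 5, 27 and 8 in Vector libraries. Pcdh10, a further WAVE partner, had 6, 1 and 1 counts in DNTCF4_EZH2, 2, 7 and 6 in DNTCF4_SET, 0, 0 and 0 in DNTCF4 and 4, 14 and 6 in Vector libraries. Vector replicate 2 was the highest library for each of these 3 genes. Against the Vector sum, Pcdh17 was at least 13.2-fold and Pcdh10 at least 8.77-fold lower in DNTCF4. For Pcdh19, with 1 count in DNTCF4, the ratio of Vector to DNTCF4 was 43.8 (95% counting interval 7.43 to 1770). Without Vector replicate 2, an alternative chosen after seeing the data, the bounds were 6.74-fold for Pcdh17 and 5.62-fold for Pcdh10, and the ratio for Pcdh19 was 21.9 (3.29 to 931). With no filter on low counts edgeR called all 3 genes lower in DNTCF4 than in Vector, at an adjusted p of 8.66e-07 for Pcdh17, 2.02e-06 for Pcdh19 and 1.99e-05 for Pcdh10. The test with limma on the deposited rlog values called them lower too, at an adjusted p of 0.00626, 0.00919 and 0.0073 in the same order of genes. These p-values rest on the counts by which the genes were chosen, so they add no separate support.

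Reads on olfactory and vomeronasal receptor genes, which belong to sensory neurons and were taken as a sign of reads on silent genes, moved with these low counts. Of 2003 such rows, 241 to 311 had a count in DNTCF4_EZH2, 325 to 472 in DNTCF4_SET, 69 to 81 in DNTCF4 and 550 to 774 in Vector libraries. Vector replicate 2 had the most, and their summed level was 56.7 to 59.7, 61.2 to 90.1, 45.9 to 54.5 and 95.3 to 290 CPM in DNTCF4_EZH2, DNTCF4_SET, DNTCF4 and Vector libraries. Their part in the values of Pcdh11x, Pcdh17, Pcdh19 and Pcdh10 was not tested. Pcdh11x kept its call in DNTCF4 against Vector and in DNTCF4_SET against DNTCF4 with Vector replicate 2 and DNTCF4_SET replicate 2 both left out, and lost the second of these with limma on rlog values. Leaving out those libraries does not test the part of receptor reads. The libraries left in had 550 and 609 receptor genes with a count in Vector and 325 and 421 in DNTCF4_SET, still above DNTCF4.

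**Figure D2:**
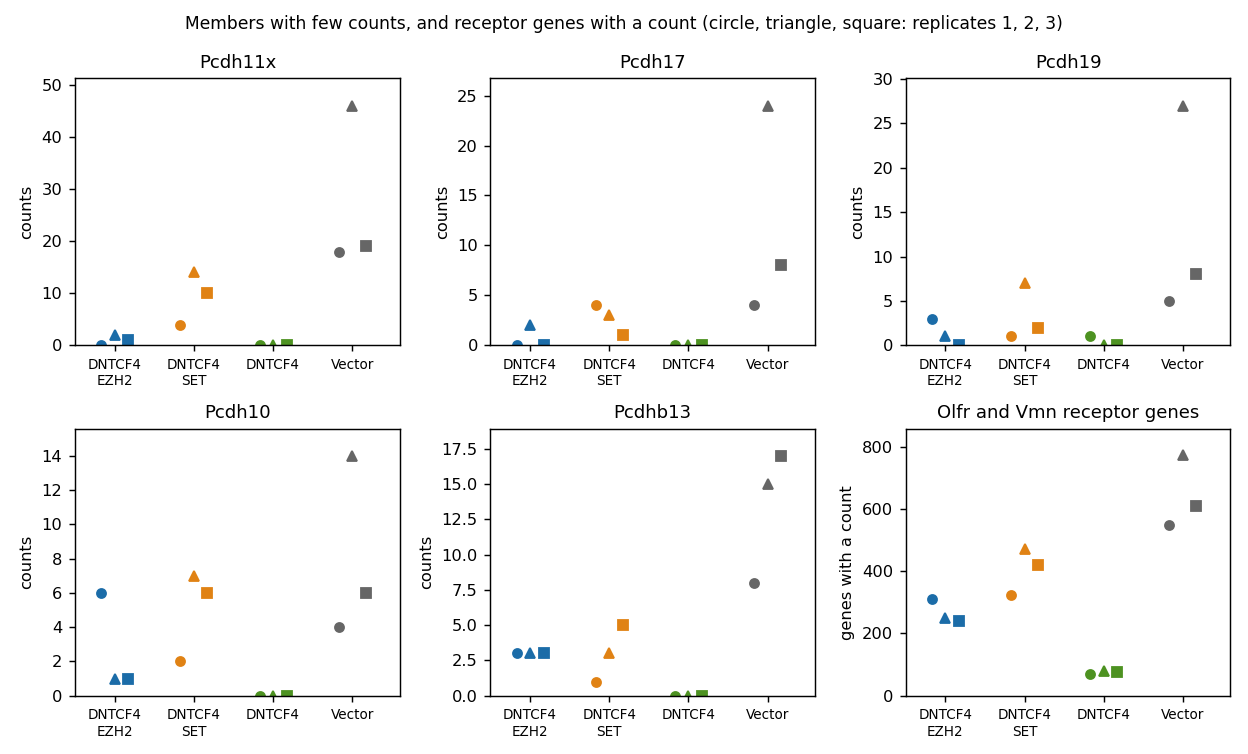
Counts per library (linear axes from 0) of Pcdh11x, Pcdh17, Pcdh19, Pcdh10 and Pcdhb13, and the number of olfactory and vomeronasal receptor genes with a count, for the 4 groups along the horizontal axis and replicates 1 to 3 as symbols. The 3 DNTCF4 libraries hold at most 1 count of each of these members and 69 to 81 receptor genes, and Vector replicate 2 holds 774 receptor genes.

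Pcdh15, a component of the tip links of hair cells, had 11, 10 and 11 counts in DNTCF4_EZH2, 7, 7 and 12 in DNTCF4_SET, 11, 4 and 8 in DNTCF4 and 23, 18 and 8 in Vector libraries. The DNTCF4 and Vector groups overlapped. The log2 change was -1.19 ± 0.43 (adjusted p 0.0271), and the call was lost without DNTCF4 replicate 2 (log2 change -0.82, adjusted p 0.135), DNTCF4 replicate 3 (-1.22, 0.0615), Vector replicate 1 (-0.87, 0.146) or Vector replicate 2 (-1.14, 0.0624). It was also lost with only the 6 libraries compared (0.0659) and without both receptor-rich libraries (0.0694). Of the remaining non-clustered genes, Pcdh12, known from endothelium, had 3 to 13 counts per library and Pcdh9 had 1 to 7, Pcdh20 had a single count in each of 2 libraries, and Pcdh8 had none. Of 8 endothelial markers only Cdh5 and Vwf were above 1 CPM, and Cldn5 had no count. Their sum was 4.48 to 5.48 CPM in DNTCF4_EZH2, 5.68 to 7.51 in DNTCF4_SET, 6.06 to 7.42 in DNTCF4 and 3.39 to 4.80 in Vector libraries.

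The beta cluster, a run of single-exon genes, was read almost wholly from its last genes in chromosomal order. Pcdhb14 to Pcdhb22 held 96.7% to 98.8% of the beta counts of each library, and Pcdhb16 and Pcdhb17 alone held 63.3% to 67.6%. Of the 13 genes Pcdhb1 to Pcdhb13 only Pcdhb5 passed the filter, at 8 to 27 counts per library with all groups overlapping. Summed over the cluster, the level was 70.1, 69.9 and 69.9 CPM in DNTCF4_EZH2, 71.4, 70.2 and 69.2 CPM in DNTCF4_SET, 69.2, 63.5 and 68.3 CPM in DNTCF4, and 53.5, 58.5 and 55.3 CPM in Vector libraries. Each of the 9 libraries with the dominant negative TCF4 construct was above each Vector library, and the DNTCF4 mean was 1.20 times the Vector mean. Of the 50-base words of a beta gene, a median of 4.46% also occur in another gene.

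Pcdhb17, the most abundant beta gene, rose with the construct. It had 29.1, 30.4 and 29.4 CPM in DNTCF4_EZH2, 30.7, 29.9 and 27.9 CPM in DNTCF4_SET, 27.8, 28.4 and 30.0 CPM in DNTCF4, and 22.6, 23.6 and 23.5 CPM in Vector libraries. The Vector libraries lay below all others (log2 change 0.31 ± 0.05 in DNTCF4 against Vector, adjusted p 0.000155). Pcdhb16, its neighbour, had 16.6, 15.9 and 16.0 CPM in DNTCF4_EZH2, 15.2, 15 and 15.9 CPM in DNTCF4_SET, 18.3, 14.2 and 16.0 CPM in DNTCF4, and 13.5, 13.6 and 13.7 CPM in Vector libraries. DNTCF4 replicate 1 was the highest, and the call (log2 change 0.25 ± 0.08, adjusted p 0.0130) was lost without it (0.15, adjusted p 0.0733) and with only the 6 libraries compared (0.0546).

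Pcdhb18, Pcdhb20 and Pcdhb22 rose as well in DNTCF4 against Vector. Pcdhb18 had 7.44, 6.86 and 7.17 CPM in DNTCF4_EZH2, 8.62, 7.33 and 7.58 CPM in DNTCF4_SET, 6.97, 6.75 and 5.82 CPM in DNTCF4, and 4.97, 5.21 and 4.69 CPM in Vector libraries. Pcdhb20 had 3.72, 3.56 and 3.57 CPM in DNTCF4_EZH2, 3.08, 3.08 and 3.19 CPM in DNTCF4_SET, 3.85, 3.73 and 3.48 CPM in DNTCF4, and 2.3, 2.33 and 2.56 CPM in Vector libraries. Pcdhb22 had 3.34, 3.04 and 3.44 CPM in DNTCF4_EZH2, 4.44, 4.02 and 4.13 CPM in DNTCF4_SET, 3.32, 2.77 and 3.19 CPM in DNTCF4, and 1.77, 2.18 and 1.26 CPM in Vector libraries. Beta isoforms lack the constant cytoplasmic tail of the alpha and gamma proteins. For each of the 3 genes every Vector library was below every other library. The log2 changes against Vector were 0.39 ± 0.10 for Pcdhb18 (adjusted p 0.00300), 0.62 ± 0.11 for Pcdhb20 (adjusted p 0.000172) and 0.82 ± 0.16 for Pcdhb22 (adjusted p 0.000586).

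Pcdhb14 fell in DNTCF4, against the other called beta genes. It had 0.586, 0.490 and 0.775 CPM in DNTCF4_EZH2, 0.894, 1.13 and 0.910 CPM in DNTCF4_SET, 0.800, 0.605 and 0.293 CPM in DNTCF4, and 0.979, 2.66 and 2.10 CPM in Vector libraries. The DNTCF4 and Vector libraries did not overlap (log2 change -1.75 ± 0.37, adjusted p 0.000816), and Vector replicate 2, with 72 counts, was the highest. Pcdhb13, the gene before it on the chromosome, fell below the filter and had 3, 3 and 3 counts in DNTCF4_EZH2, 1, 3 and 5 in DNTCF4_SET, 0, 0 and 0 in DNTCF4 and 8, 15 and 17 in Vector libraries. It is named after its values were seen, and it was at least 14.6-fold lower in DNTCF4 than in Vector, and at least 14-fold without Vector replicate 2. Alternatives that let it into the test called it lower in DNTCF4 than in Vector, at an adjusted p of 5.36e-08 in edgeR with no filter and 0.000103 with limma on rlog values. These p-values rest on the counts by which Pcdhb13 was named, so they add no separate support. Receptor genes with a count were likewise fewest in DNTCF4 and most in Vector libraries, and their part in these low counts was not tested.

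**Figure D3:**
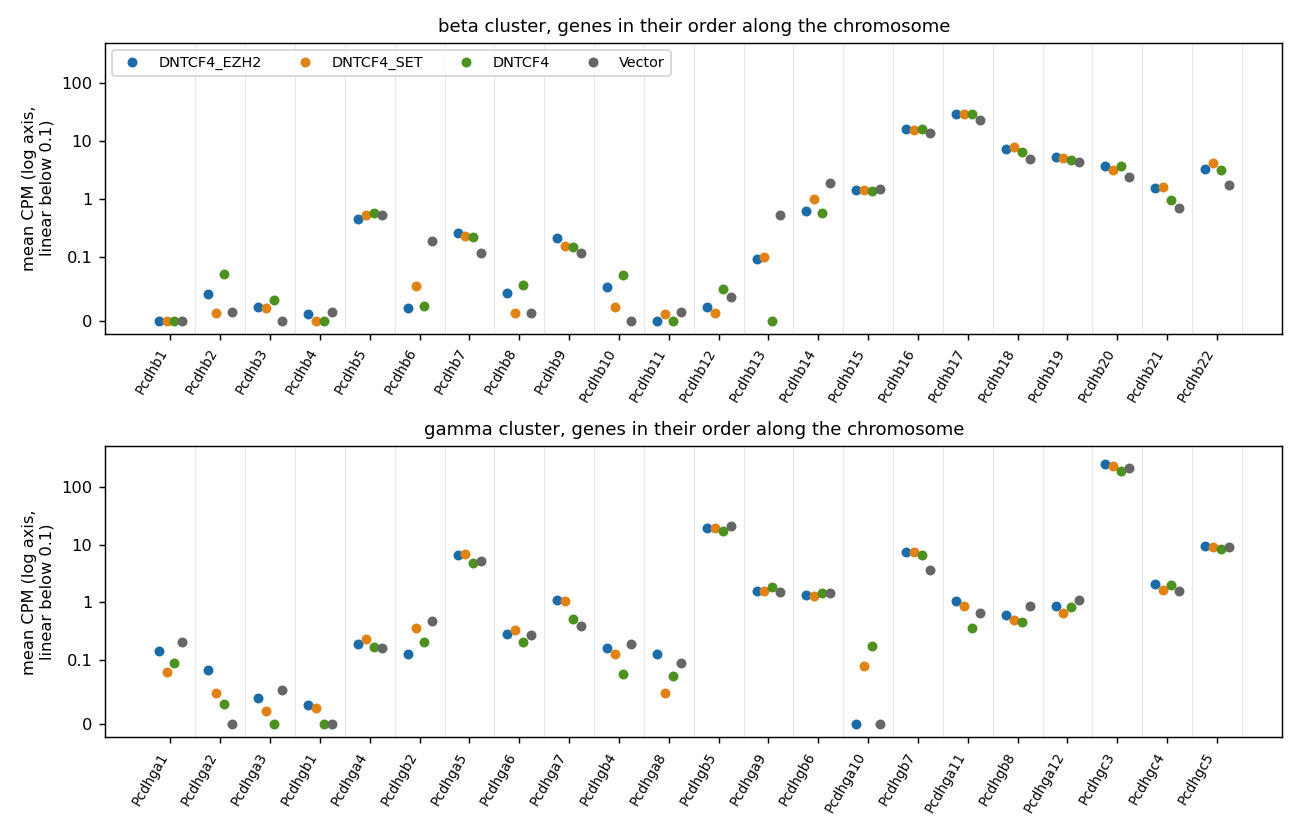
Mean CPM of each beta gene (top) and each gamma gene (bottom) in the 4 groups, on a log axis that is linear below 0.1 CPM, with the genes in their order along the chromosome. Levels above 1 CPM in all 4 groups are found from Pcdhb15 to Pcdhb20 and at Pcdhb22 in the beta cluster, and Pcdhgc3 stands above all other gamma genes.

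The gamma cluster carried most of the protocadherin counts, 61.9% to 69.4% per library, and most of them were assigned to Pcdhgc3, with 79.5% to 83.3% of the gamma counts. Pcdhgc3, an isoform of the C-type that is used outside the nervous system and whose mouse protein binds Axin1 and dampens Wnt signalling in cultured cells, had 246.3, 252.7 and 254.8 CPM in DNTCF4_EZH2, 233.9, 230.6 and 227.4 CPM in DNTCF4_SET, 172.2, 200.0 and 196.7 CPM in DNTCF4, and 200.8, 211.3 and 215.2 CPM in Vector libraries. All 6 libraries with a second construct were above all 6 without one, and DNTCF4 replicate 1 was the lowest. The log2 change in DNTCF4 against Vector was -0.14 ± 0.05 (adjusted p 0.0221), and it lay between -0.19 and -0.08 with any single library left out. That call was lost without Vector replicate 2 (-0.13, adjusted p 0.0873), Vector replicate 3 (-0.12, 0.0855), DNTCF4_EZH2 replicate 1 (-0.12, 0.0601) or DNTCF4_SET replicate 1 (-0.12, 0.0600), the last pair being outside the comparison but part of the joint fit. It was also lost with only the 6 libraries compared (0.0736) and without both receptor-rich libraries (0.0745).

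Pcdhgb7 was the only one of the 14 tested gamma genes called higher in DNTCF4 against Vector. It had 7.68, 7.84 and 6.90 CPM in DNTCF4_EZH2, 8.19, 7.37 and 7.01 CPM in DNTCF4_SET, 6.78, 5.89 and 7.14 CPM in DNTCF4, and 3.31, 4.14 and 3.44 CPM in Vector libraries. The Vector libraries were below all others, and the log2 change was 0.86 ± 0.11 (adjusted p 1.30e-05). As a share of gamma counts it held 2.82% ± 0.374 in DNTCF4 and 1.41% ± 0.157 in Vector cells (SD, n = 3). Its exons overlap those of Gm26672 on the opposite strand, which did not pass the test in this comparison (log2 change -0.47, adjusted p 0.282). Pcdhgc4 had a log2 change of 0.33 (adjusted p 0.141), with each DNTCF4 library above each Vector library. Pcdhga7 (0.43, adjusted p 0.491) and Pcdhga9 (0.30, adjusted p 0.228) had positive changes too, with groups that overlapped.

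Pcdhgb5, the gamma gene next in abundance after Pcdhgc3, had 21.1, 18.7 and 19.1 CPM in DNTCF4_EZH2, 18.9, 21.1 and 17.5 CPM in DNTCF4_SET, 16.2, 16.3 and 19.0 CPM in DNTCF4, and 17.9, 20.7 and 23.8 CPM in Vector libraries. DNTCF4 and Vector overlapped (log2 change -0.28 ± 0.10, adjusted p 0.0287), and leaving out DNTCF4 replicate 2 (adjusted p 0.0738), Vector replicate 2 (0.0681) or Vector replicate 3 (0.162) ended the call, as did leaving out both receptor-rich libraries (0.0507). Pcdhgb2, with log2 change -1.23 ± 0.43 (adjusted p 0.0225), and Pcdhgb8, annotated as a polymorphic pseudogene, with log2 change -0.90 ± 0.32 (adjusted p 0.0263), were also called lower. They had 2 to 15 and 11 to 28 counts per library. Pcdhgb2 had enough counts for the test only through the Vector libraries, so its p adds no support beyond the counts. The Pcdhgb2 call was lost without DNTCF4 replicate 2, Vector replicate 1 or Vector replicate 3 (adjusted p 0.0545 to 0.127), and the Pcdhgb8 call without any DNTCF4 replicate or without Vector replicate 1 or 2 (adjusted p 0.0571 to 0.103). DESeq2 called neither (0.0595 and 0.0524), Pcdhgb2 was also lost with no filter (0.0693), and Pcdhgb8 without both receptor-rich libraries (0.109).

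Because the gamma genes share their constant exons, the split of reads between them rests on the model of RSEM, the program that estimated the counts. A median of 44.4% of the 50-base words of a gamma gene occur in another gene, against 0 for the non-clustered genes and 60.1% in the alpha cluster, and single gamma genes are therefore uncertain. The summed gamma level was 302.1, 304.5 and 306.0 CPM in DNTCF4_EZH2, 285.8, 284.6 and 276.4 CPM in DNTCF4_SET, 216.5, 244.9 and 244.5 CPM in DNTCF4, and 245.4, 259.8 and 264.9 CPM in Vector libraries. The 4 groups did not overlap, with DNTCF4 lowest and DNTCF4_EZH2 highest. However, DNTCF4 replicate 2 at 244.9 CPM nearly met Vector replicate 1 at 245.4 CPM. DNTCF4 replicate 1, set apart above, was the lowest library at 216.5 CPM. The alpha cluster had 14 counts over the 12 libraries, on Pcdha3, Pcdha4, Pcdha5 and Pcdha8. The 8 gamma genes below the filter had at most 12 counts in a library.

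**Figure D4:**
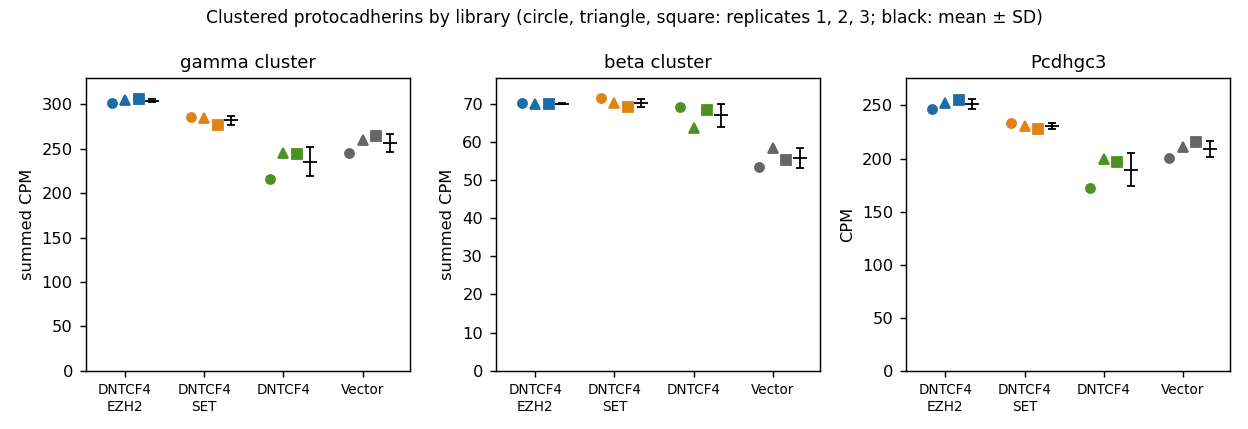
Summed CPM of the gamma and of the beta cluster and the CPM of Pcdhgc3 (linear axes from 0) in each library, for the 4 groups along the horizontal axis, with replicates 1 to 3 as symbols and the mean ± SD in black. The gamma sum averages 304.2 and 282.3 CPM in DNTCF4_EZH2 and DNTCF4_SET, above 235.3 CPM in DNTCF4, and the beta sum averages 55.8 CPM in Vector cells, below the other groups.

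In DNTCF4_EZH2 against DNTCF4, 3 of the 29 tested members passed, all of them higher: Pcdhgc3, Pcdhga11 and Pcdhb21. Of all tested genes 25.5% passed, 13% higher and 12.5% lower, beside 10.3% of the members. At an unadjusted p below 0.05, 6 of the 29 members were higher and 0 lower, beside 18.5% of all genes higher and 18.2% lower. The median log2 change was 0.14 for the members and 0 for all genes. Pcdhgc3 rose by a log2 change of 0.41 ± 0.05 (adjusted p 2.16e-05), between 0.34 and 0.45 with any single library left out. BC037039, a gene on the opposite strand that overlaps exons of Pcdhgc3, rose too (log2 change 0.27, adjusted p 0.0314), at 17.9 ± 0.0460 CPM in DNTCF4_EZH2 and 14.9 ± 1.61 CPM in DNTCF4 cells (SD, n = 3). Whether its reads came from Pcdhgc3 or the reverse was not tested. Without Vector replicate 2 the count was 5, with Pcdhga5 and Pcdhga7 added. Both this comparison and the next use the 3 DNTCF4 libraries that were set against Vector above, so low DNTCF4 values enter all of them.

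Pcdhga11 had 45, 28 and 27 counts in DNTCF4_EZH2, 23, 25 and 27 in DNTCF4_SET, 8, 11 and 12 in DNTCF4 and 19, 19 and 13 in Vector libraries. The DNTCF4 libraries were below all others. The log2 changes were 1.52 ± 0.27 in DNTCF4_EZH2 (adjusted p 0.000825) and 1.23 ± 0.28 in DNTCF4_SET (adjusted p 0.00522), each against DNTCF4, and both calls held with any single library left out. In DNTCF4 against Vector it was -0.84 ± 0.30 (adjusted p 0.0256), a call lost without DNTCF4 replicate 1 (0.0888) or 2 (0.0652) or Vector replicate 1 (0.0749) or 2 (0.0661). It was also lost with no filter (0.0713), with only the 6 libraries compared (0.0529), with DESeq2 (0.0686), with limma on rlog values (0.0716) and without both receptor-rich libraries (0.0701). The exons of Pcdhga11 also overlap those of Gm26672, which passed in none of the comparisons, and its counts share the constant exons of the cluster.

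Pcdhb21 had 63, 44 and 41 counts in DNTCF4_EZH2, 40, 46 and 55 in DNTCF4_SET, 23, 26 and 32 in DNTCF4 and 12, 25 and 16 in Vector libraries. Both groups with a second construct lay above the DNTCF4 libraries, with log2 changes of 0.71 ± 0.23 in DNTCF4_EZH2 (adjusted p 0.0385) and 0.75 ± 0.24 in DNTCF4_SET (adjusted p 0.0292). The call in DNTCF4_EZH2 was lost without any DNTCF4_EZH2 or DNTCF4_SET replicate or without DNTCF4 replicate 1 or 2 (adjusted p 0.0517 to 0.175). It was also lost with DESeq2 (0.0612) and with the replicate number as a block (0.0542). The call in DNTCF4_SET was lost without DNTCF4_SET replicate 2 or 3 or DNTCF4 replicate 1 or 2 (adjusted p 0.0620 to 0.0981), and without both receptor-rich libraries (0.0558). The end of Pcdhb21 overlaps the start of Pcdhb22 on the same strand, and reads of that stretch can belong to either.

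In DNTCF4_SET against DNTCF4, 8 of the 29 tested members passed, all of them higher, namely Pcdh11x, Pcdh18, Pcdhb18, Pcdhb21, Pcdhb22, Pcdhga5, Pcdhga11 and Pcdhgc3. This is 27.6% of the members, close to the 26% of all tested genes that passed, where 12.7% were higher and 13.3% lower. At an unadjusted p below 0.05, 9 members were higher and 1, Pcdhb20, was lower (log2 change -0.24 ± 0.10, adjusted p 0.123), beside 18.1% of all genes higher and 19% lower. The median log2 change was 0.12 for the members and 0.00 for all genes. Pcdhgc3 rose by 0.28 ± 0.05 on the log2 scale (adjusted p 0.000595). The count was 5 without DNTCF4_SET replicate 2 or 3 or without DNTCF4 replicate 2 or 3, and Pcdh11x, Pcdh18, Pcdhga11 and Pcdhgc3 were among the 5 each time. The calls of Pcdh18, Pcdh11x, Pcdhga11 and Pcdhgc3 held with any single library left out, and that of Pcdh11x was lost with limma on the rlog values (adjusted p 0.21).

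Pcdhga5 had 6.68, 6.56 and 6.4 CPM in DNTCF4_EZH2, 6.37, 8.20 and 6.28 CPM in DNTCF4_SET, 5.83, 5.16 and 3.66 CPM in DNTCF4, and 4.37, 6.31 and 5.03 CPM in Vector libraries. Both groups with a second construct were above DNTCF4 (log2 change 0.50 ± 0.16 in DNTCF4_SET, adjusted p 0.0296, and 0.42 ± 0.16 in DNTCF4_EZH2, adjusted p 0.0632). The call was lost without DNTCF4_SET replicate 2 (adjusted p 0.142) or DNTCF4 replicate 3 (0.120), with only the 6 libraries compared (0.0655) and without both receptor-rich libraries (0.0821). Pcdhb22, with the values given above, rose by 0.44 ± 0.14 on the log2 scale in DNTCF4_SET against DNTCF4 (adjusted p 0.0326), a call lost without any DNTCF4_SET replicate or without DNTCF4 replicate 2 or 3 (0.0587 to 0.107). Pcdhb18 rose by 0.27 ± 0.09 (adjusted p 0.0422), a call lost without any DNTCF4_EZH2 replicate, DNTCF4_SET replicate 1 or 3 or DNTCF4 replicate 2 or 3 (0.0509 to 0.173), and also with no filter (0.0934), with only the 6 libraries compared (0.0982) and with DESeq2 (0.0786).

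Markers of other cell types stood as follows beside the higher clustered genes. Of 8 neuron markers Tubb3, Stmn2 and Map2 were above 1 CPM and none was without a count, and the sum of the 8 was 34.8 to 36.2 CPM in DNTCF4_EZH2, 37.6 to 40.1 in DNTCF4_SET, 30.8 to 35.8 in DNTCF4 and 42.4 to 47.0 in Vector libraries. Of 8 glia markers Mbp and Sox10 were above 1 CPM and Olig2 had no count, and their sum was 14.5 to 15.3 CPM in DNTCF4_EZH2, 14 to 15.2 in DNTCF4_SET, 8.73 to 10.2 in DNTCF4 and 7.04 to 8.10 in Vector libraries. Of 8 leukocyte markers Cd68 and Csf1r were above 1 CPM, and their sum was 66.8 to 71.8, 59.8 to 68.6, 45.0 to 66.2 and 53.6 to 57.9 CPM in DNTCF4_EZH2, DNTCF4_SET, DNTCF4 and Vector libraries. The glia sum and the spindle and mesenchymal sum were higher in both groups with a second construct than in DNTCF4, as Pcdhgc3 was. Against Vector, the glia sum was higher in DNTCF4, and the spindle and mesenchymal sum and Pcdhgc3 were lower. The part of these markers in the protocadherin values was not tested.

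**Figure D5:**
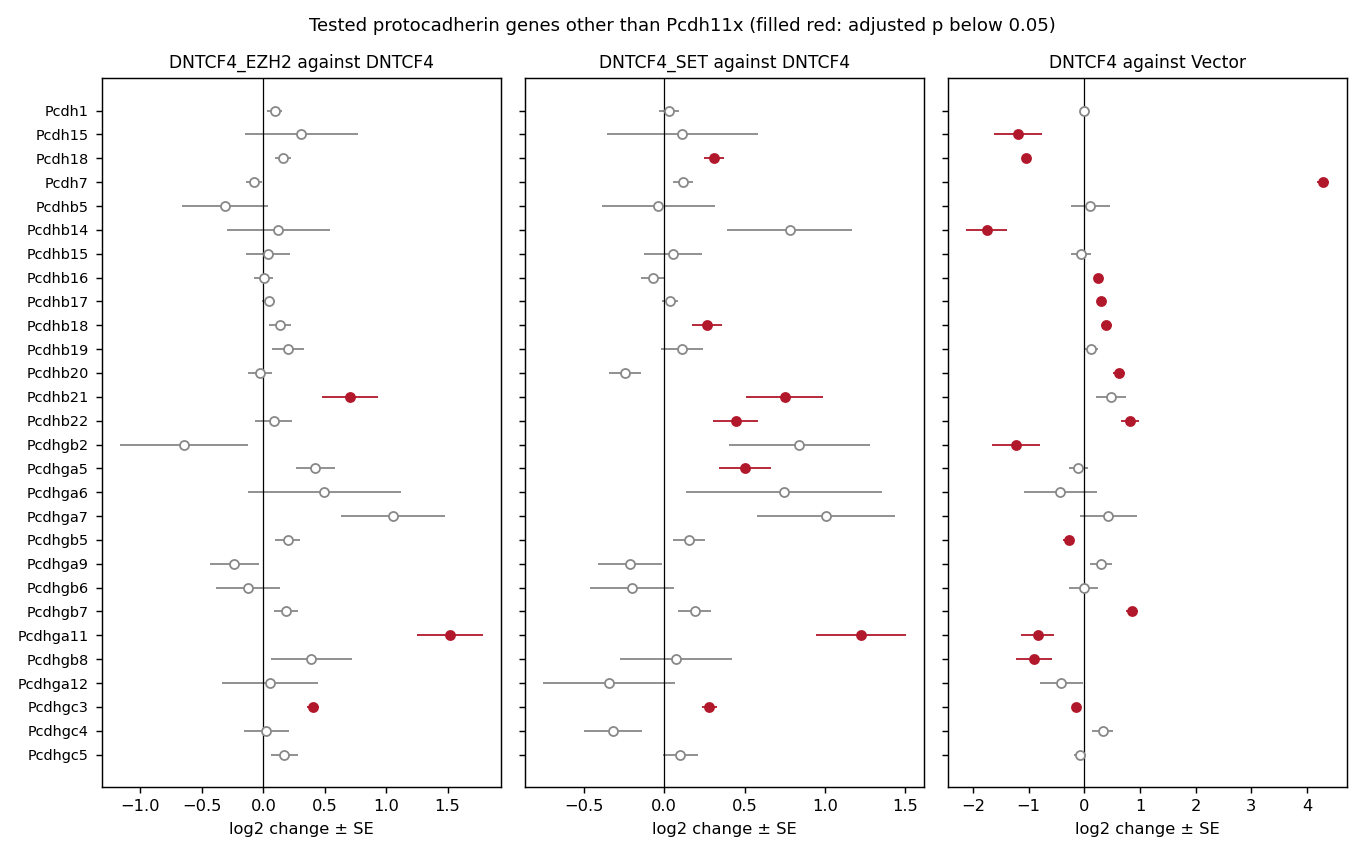
Log2 change ± SE of 28 tested protocadherin genes (all but Pcdh11x, which has no count in DNTCF4) in DNTCF4_EZH2 against DNTCF4, DNTCF4_SET against DNTCF4 and DNTCF4 against Vector, on linear axes of different width, with genes at an adjusted p below 0.05 in filled red. Every called gene lies right of 0 in the panels of the second constructs, and in DNTCF4 against Vector Pcdh7 lies farthest from 0.

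Between DNTCF4_EZH2 and DNTCF4_SET none of the 29 tested members passed in edgeR, with DESeq2 or with limma on the deposited rlog values, beside 5.16% of all tested genes in edgeR, 3% higher and 2.17% lower. At an unadjusted p below 0.05, 1 member was higher and 5 were lower, beside 1582 of all 15052 genes higher and 1313 lower. Pcdhgc3 was higher in each DNTCF4_EZH2 library than in each DNTCF4_SET library (log2 change 0.12 ± 0.05, adjusted p 0.17). Pcdh11x had 3 counts in DNTCF4_EZH2 and 28 in DNTCF4_SET, a ratio of DNTCF4_SET to DNTCF4_EZH2 of 10.1 with a 95% counting interval of 3.11 to 51.8 (adjusted p 0.0580). Pcdh7 lay lower in each DNTCF4_EZH2 library than in each DNTCF4_SET library (log2 change -0.19 ± 0.06, adjusted p 0.102). Leaving out DNTCF4 replicate 1, which is outside the comparison but part of the joint fit, gave 3 calls, Pcdh7, Pcdh11x and Pcdhgc3. In that fit 6.93% of all tested genes were higher and 5.69% lower. Leaving out DNTCF4 replicate 2 or Vector replicate 2 gave 1, Pcdh11x.

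Of 24 genes for promoter choice and silencing at the clusters, 15 were higher and 2 lower in DNTCF4 against Vector, with a median log2 change of 0.16, beside 29.5% higher, 28% lower and a median of 0.01 over all tested genes. DNTCF4 replicate 1 stood above replicates 2 and 3 for Rad21, a cohesin subunit (524.4, 400.2 and 412.8 CPM), and for Stag2, another (289.0, 214.0 and 227.8 CPM). Without that library, an alternative chosen after seeing the data, 12 of the 24 were higher and 3 lower, beside 28.2% and 31% of all tested genes. Rad21, Wapl and Lrif1 then lost their calls (adjusted p 0.121, 0.0589 and 0.152), and Pds5b was called lower (0.00175). Ctcf, which binds the cluster promoters, had 68.7 CPM in DNTCF4 and 61.2 CPM in Vector cells (log2 change 0.17, adjusted p 0.00696). Rest, a repressor of neuronal genes, had 116.9 and 84.5 CPM in DNTCF4 and Vector cells (0.47, adjusted p 1.19e-07), and the cohesin subunit Smc3 had 185.9 and 141.8 CPM (0.39, adjusted p 2.64e-05). In DNTCF4_EZH2 against DNTCF4, 5 of the 24 were higher and 3 lower, beside 13% and 12.5% of all tested genes. In DNTCF4_SET against DNTCF4, 3 were higher and 3 lower, beside 12.7% and 13.3%. Without DNTCF4 replicate 1, 9 of the 24 were higher and 3 lower in DNTCF4_EZH2, beside 14.4% and 14.2% of all genes. In DNTCF4_SET 8 were higher and 3 lower without it, beside 15.5% and 15.4%. Without that library Rad21 was higher in both (adjusted p 0.000123 and 5.45e-05). Ctcf was lower in both (log2 changes -0.20, adjusted p 0.00592, and -0.20, adjusted p 0.00510), while the DNA methyltransferase Dnmt3a was higher in both (0.11, adjusted p 0.0424, and 0.17, adjusted p 0.00369). Between DNTCF4_EZH2 and DNTCF4_SET none of the 24 passed in edgeR, and at an unadjusted p below 0.05, 5 were higher and 2 lower. In that comparison 3 were higher and 2 lower in the joint fit without DNTCF4 replicate 1.

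Of 19 tested cytoplasmic partners and WAVE complex genes, 4 were higher and 5 lower in DNTCF4 against Vector, beside 29.5% and 28% of all tested genes. Ctnnb1, which encodes beta-catenin, had 1488 CPM in DNTCF4 and 874.6 CPM in Vector cells (log2 change 0.77, adjusted p 7.70e-11), and Ret, a receptor kinase that binds protocadherins, had 2.41 and 0.258 CPM in DNTCF4 and Vector cells (3.20, adjusted p 4.23e-09). Ptk2b, the kinase Pyk2 that clustered protocadherins inhibit, had 13.8, 14, 10.8 and 16.7 CPM in DNTCF4_EZH2, DNTCF4_SET, DNTCF4 and Vector cells. It was lower in DNTCF4 against Vector (-0.63, adjusted p 4.91e-06) and higher in DNTCF4_EZH2 (0.35, adjusted p 0.00367) and DNTCF4_SET (0.36, adjusted p 0.00283), each against DNTCF4. The gene Set, whose product binds Pcdh7 in human cells, was lower in DNTCF4 against Vector (-0.16, adjusted p 0.00800), in DNTCF4_EZH2 (-0.21, adjusted p 0.00340) and in DNTCF4_SET (-0.16, adjusted p 0.0144) against DNTCF4. Whether the construct labelled SET holds this gene is not stated. Counts on Ezh2, given above, were higher in DNTCF4_SET than in DNTCF4 cells, whereas those on Set were lower. In each comparison of a second construct with DNTCF4 2 of the 19 were lower, and 1 was higher in DNTCF4_EZH2 and 2 in DNTCF4_SET. Of all tested genes 13% were higher and 12.5% lower in DNTCF4_EZH2, and 12.7% and 13.3% in DNTCF4_SET. Between DNTCF4_EZH2 and DNTCF4_SET 1 of the 19 was higher, the kinase gene Taok2 (0.21, adjusted p 0.0195), beside 3% of all genes. Without DNTCF4 replicate 1, 6 of the 19 were higher and 8 lower in DNTCF4 against Vector, beside 28.2% and 31% of all genes. Against DNTCF4, 4 were then higher and 3 lower in DNTCF4_EZH2, beside 14.4% and 14.2%. In DNTCF4_SET 5 were higher and 3 lower, beside 15.5% and 15.4%. Between those 2 groups, 1 was higher and 1 lower, beside 6.93% and 5.69%.

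Of 8 genes for shedding and gamma-secretase cleavage, the steps that release protocadherin fragments from the membrane, 1 was higher in DNTCF4 against Vector. A further 4 were lower, beside 29.5% of all tested genes higher and 28% lower. The only rise was in Psen2, a catalytic subunit of gamma-secretase, at 3.42 CPM in DNTCF4 and 1.40 CPM in Vector cells (log2 change 1.3, adjusted p 2.92e-06). Adam10, the protease that sheds gamma protocadherins, did not pass there (0.01, adjusted p 0.889). It rose in DNTCF4_EZH2 and in DNTCF4_SET, at 176.4 and 178.0 CPM, against 144.1 CPM in DNTCF4 cells (0.29, adjusted p 0.000665, and 0.31, adjusted p 0.000496). In all, 2 of the 8 were higher in DNTCF4_EZH2 and 3 in DNTCF4_SET against DNTCF4, and none was lower. Of all tested genes 13% were higher and 12.5% lower in DNTCF4_EZH2, and 12.7% and 13.3% in DNTCF4_SET. Between DNTCF4_EZH2 and DNTCF4_SET none of the 8 passed in edgeR, beside 5.16% of all genes, and 0 of the 8 had an unadjusted p below 0.05.

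Other cadherins gave these counts. Of 8 tested cadherin genes named Cdh, 1 was higher and 2, Cdh13 and Cdh17, were lower in DNTCF4 against Vector. Of all tested genes 29.5% were higher and 28% lower there. Cdh17, an intestinal cadherin, had 8.38 and 16.2 CPM in DNTCF4 and Vector cells (log2 change -0.95, adjusted p 2.88e-08). Of the 8 Cdh genes 2 were higher and 0 lower in DNTCF4_EZH2, and 2 were higher and 1 lower in DNTCF4_SET, each against DNTCF4. In DNTCF4_EZH2 against DNTCF4_SET 2 were higher and 0 lower. Of all tested genes 13% were higher and 12.5% lower in DNTCF4_EZH2, 12.7% and 13.3% in DNTCF4_SET, and 3% and 2.17% between those groups. All 10 tested genes of the Fat, Dachsous, Celsr, calsyntenin and desmosomal group passed in DNTCF4 against Vector, 6 higher and 4 lower, beside 57.5% of all tested genes. Fat1, a large atypical cadherin, was lower (-1.52, adjusted p 2.17e-12) at 41.9 CPM in DNTCF4 and 119.9 CPM in Vector cells. Fat4, which pairs with Dachsous in planar polarity, was higher (1.60, adjusted p 2.21e-12) at 39.3 CPM in DNTCF4 and 12.9 CPM in Vector cells. Both were higher in DNTCF4_EZH2, at 60.2 CPM for Fat1 and 63.7 CPM for Fat4, than in DNTCF4 (0.52, adjusted p 3.52e-06, for Fat1 and 0.70, adjusted p 4.29e-08, for Fat4). Of these 10 genes 5 were higher in DNTCF4_EZH2 and 6 in DNTCF4_SET against DNTCF4, and none was lower, beside the shares of all genes given above. In DNTCF4_EZH2 against DNTCF4_SET 1, Fat4, was lower (-0.19, adjusted p 0.0226).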

How the data were processed

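Total RNA of 12 CCN6KOT samples was sequenced, and titles gave each sample's group and replicate. The deposited table has expected counts per gene, not normalised and already whole numbers, for 55492 features. Per the submitters' processing notes, the tools were STAR 2.7.8a and RSEM 1.3.3 with the GRCm38 build, besides cutadapt 2.3, FastQC 0.11.8 and DESeq2. Their order, settings and use of strand are not stated. RSEM divides reads that fit several genes by a model. The authors also deposited DESeq2 rlog values, regularised log2 counts, for 21754 genes, 47 of them protocadherin rows.

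The filter was filterByExpr (at least 10 counts, total of at least 15), and genes were tested in 1 fit over the 12 libraries (edgeR 4.0.16, R 4.3.3, TMM scaling, quasi-likelihood test, two-sided, Benjamini-Hochberg over 15052 genes, threshold 0.05). CPM are scaled by TMM factors. The floor of 3 counts equals 0.0882 to 0.127 CPM by library. Intervals (95%, exact, of a ratio of counts) and floors cover counting error only. All 12 replicate pairs exceeded sampling noise (chi-square per degree of freedom 2.43 to 19.8). Positions, exons and lengths come from GENCODE M21, which matched all 70 rows, and upstream sequences from RefSeq. The test was tried on simulated counts.

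Values by library are given for the members called in at least 1 of 4 comparisons, up to 12 non-clustered and 12 clustered by mean CPM, and for non-clustered members with a mean of at least 1 CPM. From each list, up to 4 called genes with the smallest p were eligible to be named. Members and lists were chosen with earlier results of these data known. Alternatives were DESeq2 size factors, the DESeq2 1.42.0 Wald test, limma 3.58.1 on rlog values, 3 other filters, a replicate block, fits on the 6 libraries of a comparison, each library left out, and both receptor-rich libraries left out. After seeing the data, gene lists were counted again without DNTCF4 replicate 1, and bounds for low counts without Vector replicate 2.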

Additional observations from a re-analysis of the deposited data

How the results depend on the processing

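Over the alternatives run, the 27 calls of single protocadherin genes were refitted 557 times: 483 fits kept the call and direction, 74 lost the call and none reversed, and 14 calls held in every alternative. With a library left out in turn, 12 to 17 members were called in DNTCF4 against Vector, 2 to 5 in DNTCF4_EZH2 against DNTCF4, 5 to 9 in DNTCF4_SET against DNTCF4 and 0 to 3 in DNTCF4_EZH2 against DNTCF4_SET. Without a filter on low counts 8 members were called in DNTCF4_EZH2 against DNTCF4 and 1, Pcdh11x, in DNTCF4_EZH2 against DNTCF4_SET. Among those 8, Pcdhga10 was lower (adjusted p 0.00568 in edgeR). With only the 6 libraries compared, 5 were called in DNTCF4_SET against DNTCF4 and 3, Pcdh7, Pcdhb22 and Pcdhgc3, in DNTCF4_EZH2 against DNTCF4_SET, where fewer samples set the spread. Without the 2 libraries with the most receptor gene reads, 5 were called in DNTCF4_EZH2 against DNTCF4; the cause was not tested. Apart from the block and single libraries left out, the other alternatives stayed within 1.5 times the counts of members reported. Except without DNTCF4 replicate 1, the share of all tested genes called in the alternative fits is not given here. Counts of members in those fits, here, above and below, are therefore not read as a result about the members.

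The replicate numbers do not pair the samples (correlation of same-numbered deviations from -0.091 to 0.035). With the number as a block, 16, 3 and 8 members were called in the comparisons of DNTCF4 against Vector, DNTCF4_EZH2 against DNTCF4 and DNTCF4_SET against DNTCF4, and 1, Pcdh11x, in DNTCF4_EZH2 against DNTCF4_SET. In DNTCF4_EZH2 against DNTCF4 the block had Pcdhga5 in place of Pcdhb21. Of the 41 members below the filter, which had at most 27 counts in a library, Pcdh10, Pcdh17, Pcdh19, Pcdhb6 and Pcdhb13 were called lower and Pcdhga10 higher in DNTCF4 against Vector with no filter. With limma on rlog values those calls were made too, apart from that of Pcdhga10, and the 12 members with no count had no test. The lists without DNTCF4 replicate 1 and the bounds without Vector replicate 2 were chosen after seeing the data.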
